A study of Caenorhabditis elegans with 4 samples.

Results

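The 9 lipid-binding protein genes lbp-1 to lbp-9 of Caenorhabditis elegans were followed in ribosome profiling libraries of whole worms, by their symbols matched to WormBase identifiers. All 9 were among the 20179 genes of the count table, and all 9 passed the filter on low counts. The libraries came from young adults grown from hatched larvae on bacterial plates, 2 from the wild-type strain N2 and 2 from the double mutant cey-1 (rrr12), cey-4 (ok858). The cey genes encode Y-box proteins, which bind messenger RNA, and the comparison asks how the ribosome-protected fragments, or footprints, on each message differed without intact cey-1 and cey-4. No RNA-seq was used here, so more message and more ribosomes per message both raise a footprint level, and in whole worms fewer cells of a type cannot be told apart from fewer footprints per cell. The labels do not say whether libraries of a strain came from separate cultures, so the tests measure the spread between these libraries, which may be technical.

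Lipid-binding proteins of this family are small carriers with a barrel-shaped pocket that holds a fatty acid, which is poorly soluble in water and is otherwise bound to membranes. Their vertebrate relatives are the fatty acid-binding proteins, which are mainly intracellular. Nematodes also have a secreted branch, first described in the fluid around the embryo of Ascaris, and lbp-1, lbp-2 and lbp-3 belong to it. The proteins encoded by lbp-5, lbp-6, lbp-7 and lbp-8 are counted here as intracellular carriers, and lbp-4 and lbp-9 were placed in neither class. In C. elegans, LBP-8 carries a fatty acid signal from the lysosome to nuclear hormone receptors in the intestine, and LBP-3 carries one out of the intestine towards neurons.

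Total counts over the genes used ranged from 22303560 to 32913332 per library, and the 9 lbp genes together took 1791 to 1907 CPM (each count divided by its library's total, times 1000000). Footprints on the mutated genes checked the labels: the mutant held 0.642% of the N2 level of cey-4 and 5.57% of that of cey-1. Each log2 fold change compares the mutant with N2 and comes from edgeR's quasi-likelihood test over 13086 genes with Benjamini-Hochberg adjustment and a threshold of 0.05. Of all genes tested, 34% were called, 17.4% higher and 16.6% lower, and 64.9% had mutant and N2 libraries that did not overlap in CPM, 33.8% with the mutant above and 31.1% with the mutant below. The split of the calls moved with the scaling of the libraries, from 2278 higher and 2177 lower to 2730 and 1598 with upper-quartile factors. It was 1264 and 3997 when libraries were centred on somatic marker genes. These were intestine, hypodermis and neuron markers, without those of body wall muscle and pharynx.

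The lbp genes had log2 fold changes of -0.28 to 0.12, apart from the sparse lbp-8 at -0.51. By edgeR, 0 of the 9 were called higher and 2 were called lower, lbp-4 and lbp-6, beside 17.4% and 16.6% of all genes tested, or 34% in either direction. DESeq2 called 0 higher and 1 lower, beside 898 and 1156 over all genes. limma-voom called 0 and 3, beside 2209 and 2098 over all genes. At an unadjusted p under 0.05 in edgeR, 1 was higher and 4 were lower. The share of all genes at that looser cut was not counted, so these have no base to be read against. The median log2 fold change of the 9 was -0.11, beside 0.012 for all genes tested. The 3 secreted members had log2 fold changes of 0.068 to 0.12, and the other 6 had values of -0.51 to -0.10. In 3 members both mutant libraries lay above both N2 libraries, in 5 they lay below, and in 1 the groups overlapped. These 8 of 9 members stand beside 64.9% of all genes, so separation of the strains was common over all genes.

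**Figure D1:**
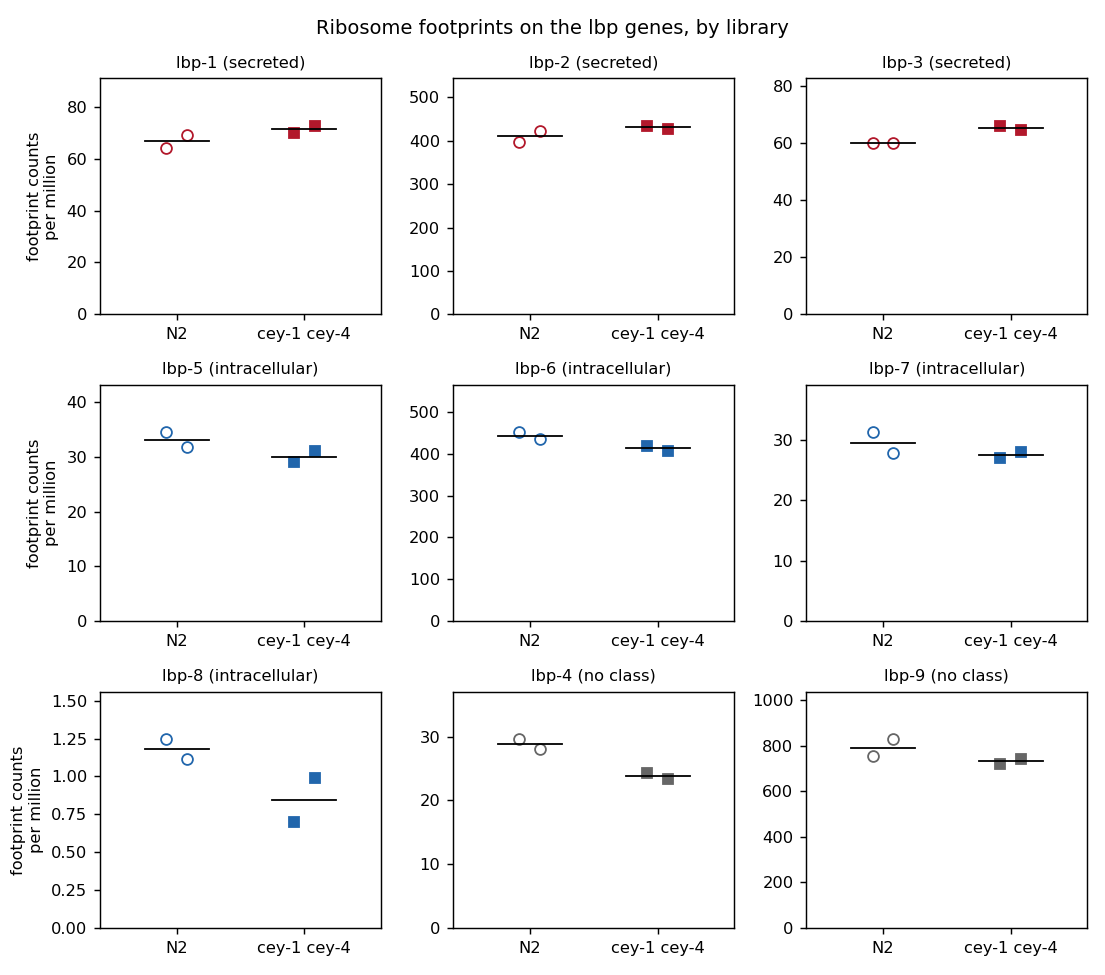
Footprint level of each lbp gene in every library, in CPM on axes that start at 0 and differ between panels; open circles are N2 libraries, filled squares are cey-1 cey-4 libraries, replicate 1 on the left, and lines are group means of 2 libraries. The mutant squares lie above the N2 circles for lbp-1, lbp-2 and lbp-3, below them for lbp-4, lbp-5, lbp-6, lbp-8 and lbp-9, and overlap them for lbp-7.

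Among the secreted carriers, lbp-2 (WBGene00002254) had 397 and 424 CPM in N2 and 435 and 427 CPM in the mutant. Both mutant libraries were above both N2 libraries, but the second N2 library lay within 3 CPM of the nearer mutant library. The group levels were 410 ± 18.6 and 431 ± 6.02 CPM (SD, n = 2 each), and the log2 fold change of 0.068 (SE 0.037, 95% interval -0.0048 to 0.14) did not pass (edgeR adjusted p = 0.15). That interval bounds the ratio of mutant to N2 between 0.997 and 1.103.

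lbp-1 (WBGene00002253) had 64.3 and 69.3 CPM in N2 and 70.1 and 72.8 CPM in the mutant. Again the second N2 library was close to the lower mutant library. Its log2 fold change was 0.095 (SE 0.049, 95% interval -0.0027 to 0.19; edgeR adjusted p = 0.131). lbp-3 (WBGene00002255), the carrier of the signal from intestine to neurons, had 59.98 and 60.03 CPM in N2, and 66.003 and 64.4 CPM in the mutant. Here the N2 libraries were nearly identical and the mutant libraries stood apart from them. The log2 fold change of 0.12 (SE 0.049, 95% interval 0.021 to 0.22) missed the threshold (edgeR adjusted p = 0.0527). It passed with the replicate block (edgeR adjusted p = 0.0314) and with at least 50 counts in 2 libraries (0.0286). With DESeq2 it did not pass (adjusted p = 0.373). With each library left out in turn it was 0.10 to 0.13. Without N2 replicate 2, lbp-2 and lbp-1 had log2 fold changes of 0.11 and 0.15. Without N2 replicate 1 these were 0.019 and 0.036, so their size depends on which N2 library is kept. With upper-quartile factors all 3 secreted members passed, and with libraries centred on somatic marker genes their values turned to -0.037, -0.064 and -0.013, so their direction depends on the scaling.

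Among the intracellular carriers, lbp-6 (WBGene00002258) had 451 and 435 CPM in N2 and 419 and 407 CPM in the mutant. The 4 libraries did not overlap between strains, and the step between strains was about as large as that between libraries of a strain. Its level fell from 443 ± 10.9 to 413 ± 8.8 CPM (SD, n = 2 each), or by 0.10 on the log2 scale (SE 0.036, 95% interval of the change -0.18 to -0.032; edgeR adjusted p = 0.0184). Its log2 fold change was -0.082 without N2 replicate 1, -0.13 without N2 replicate 2, -0.12 without mutant replicate 1 and -0.088 without mutant replicate 2. The call was lost in most of these fits, each of which leaves a lone library in a strain. With all libraries it was lost with upper-quartile factors, where the log2 fold change was -0.058 (edgeR adjusted p = 0.219). It was also lost with the filter of 50 counts (edgeR adjusted p = 0.0734), with DESeq2 (adjusted p = 0.0627) and with limma on the deposited log2 values (adjusted p = 0.053).

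lbp-5 (WBGene00002257) had 34.5 and 31.9 CPM in N2 and 29.1 and 31.1 CPM in the mutant, with the second library of each strain less than 1 CPM apart. Its log2 fold change was -0.15 (SE 0.062, 95% interval -0.27 to -0.026; edgeR adjusted p = 0.0531). It passed with no low-count filter (-0.16, edgeR adjusted p = 0.0414) and with the replicate block (-0.15, 0.0378), but not with upper-quartile factors (-0.10, 0.208). Its value was -0.20 without N2 replicate 2 and without mutant replicate 2. It was -0.093 without N2 replicate 1 and -0.094 without mutant replicate 1. lbp-7 (WBGene00002259) had 31.2 and 27.8 CPM in N2 and 27.004 and 27.9 CPM in the mutant. It was the member whose strains overlapped, since the second N2 library lay between the mutant libraries. Its log2 fold change was -0.11 (SE 0.065, 95% interval -0.24 to 0.016, edgeR adjusted p = 0.182). It was -0.19 without N2 replicate 2 and -0.028 without N2 replicate 1.

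lbp-8 (WBGene00002260), the lysosome-to-nucleus carrier, was sparsely covered, with 41 and 31 counts in N2 and 19 and 22 counts in the mutant. These counts corresponded to 1.246 and 1.11 CPM in N2 and 0.699 and 0.986 CPM in the mutant, all above the 0.0911 to 0.135 CPM that a count of 0 allows (3 counts). The exact Poisson 95% intervals of the libraries overlapped, from 0.894 to 1.69 CPM in N2 replicate 1 and from 0.421 to 1.09 CPM in mutant replicate 1. Counting error alone is covered, because PCR copies were not marked with molecular identifiers. Its log2 fold change of -0.51 (SE 0.303, 95% interval -1.12 to 0.094; edgeR adjusted p = 0.2) was the largest of the family in size and the least precise, and a ratio of mutant to N2 anywhere from 0.461 to 1.07 lay in the interval. A difference was not detectable at this depth.

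lbp-4 (WBGene00002256) had 29.6 and 28.1 CPM in N2 and 24.2 and 23.4 CPM in the mutant. Libraries of a strain lay close together and the strains were well apart. Its level fell from 28.9 ± 1.03 to 23.8 ± 0.595 CPM (SD, n = 2 each), or by 0.28 on the log2 scale (SE 0.065, 95% interval of the change -0.41 to -0.15; edgeR adjusted p = 0.000399). Among the genes tested, 13.4% had a lower log2 fold change. The call held without each of the 4 libraries in turn, at -0.31 to -0.24 (edgeR adjusted p = 0.000512 to 0.0142), and under each of the 3 other scalings. It did not pass the test against a fold change of 1.2 (edgeR adjusted p = 0.66).

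lbp-9 (WBGene00021486) held more footprint counts than any other member, which is not a comparison of levels since counts were not divided by coding length. It had 755 and 829 CPM in N2 and 720 and 744 CPM in the mutant. The first N2 library was nearer to the mutant libraries than to the second N2 library. The log2 fold change of -0.12 (SE 0.050, 95% interval -0.21 to -0.016) did not pass (edgeR adjusted p = 0.0639). It passed with the replicate block (edgeR adjusted p = 0.0106), with limma-voom (adjusted p = 0.0409) and with limma on the deposited log2 values (adjusted p = 0.0471). It did not pass with DESeq2 (adjusted p = 0.0737) or with upper-quartile factors (edgeR adjusted p = 0.2995). Its value was -0.18 without N2 replicate 1 and -0.046 without N2 replicate 2. Under somatic centring lbp-5, lbp-7 and lbp-9 all passed, at -0.28, -0.24 and -0.25.

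**Figure D2:**
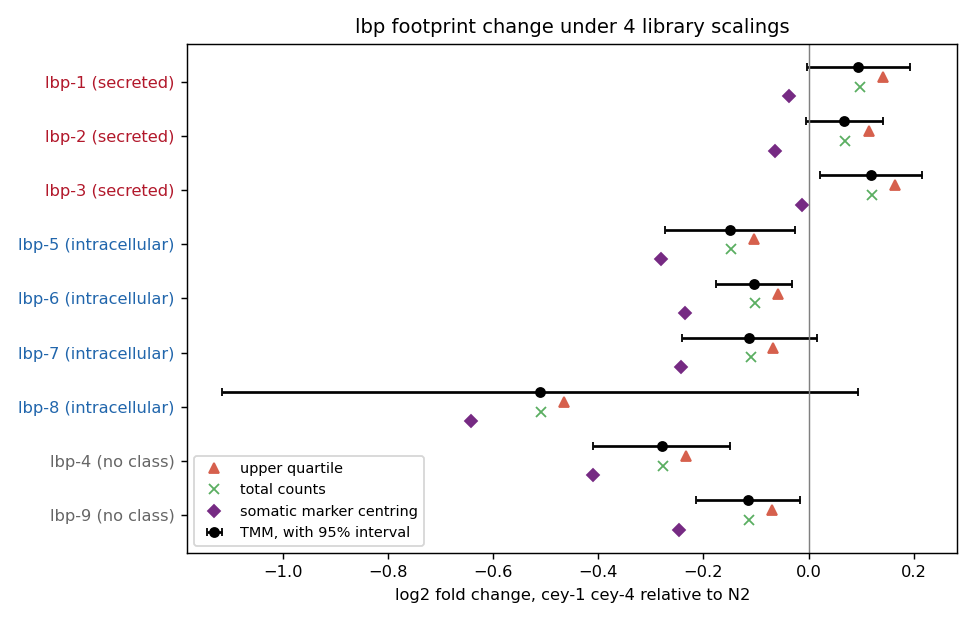
Log2 fold change of each lbp gene, cey-1 cey-4 relative to N2, under 4 scalings of the libraries; circles with bars are the TMM estimates with 95% intervals, triangles upper-quartile factors, crosses total counts alone and diamonds centring on somatic marker genes. Centring on somatic genes moves every member to the left, takes the 3 secreted members from 0.068 to 0.12 to values just below 0, and leaves the order of the members as it was.

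Centring on 59 somatic marker genes, those of intestine, hypodermis and neurons, moved the median of all genes by -0.13, and the members moved with it. Relative to that median, the secreted members lay at 0.056 to 0.11 under the standard scaling and at 0.056 to 0.11 under somatic centring, and lbp-4 lay at -0.29 under both. Ratios of counts between members are free of the scaling. The ratio of lbp-2 to lbp-6, the members with most counts in the secreted and the intracellular class, was 0.882 and 0.973 in N2 and 1.04 and 1.05 in the mutant. Both mutant libraries were above both N2 libraries, and the N2 libraries differed from each other by more than N2 replicate 2 differed from the mutant.

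Of 8 other ratios between members, 4 overlapped between the strains and 4 did not. The share of ratios between other genes that do not overlap was not computed, so this count has no base to be read against. The ratio of lbp-1 to lbp-2 was 0.162 and 0.164 in N2 and 0.161 and 0.171 in the mutant, that of lbp-5 to lbp-6 was 0.0766 and 0.0733 in N2 and 0.0694 and 0.0765 in the mutant, and that of lbp-7 to lbp-6 was 0.0692 and 0.064 in N2 and 0.0644 and 0.0686 in the mutant. These 3 ratios overlapped between strains. lbp-9, which was placed in neither class, also overlapped in its ratio to lbp-6, with 1.68 and 1.90 in N2 and 1.72 and 1.83 in the mutant. Against lbp-2 its ratio was 1.90 and 1.96 in N2 and 1.66 and 1.74 in the mutant, with no overlap. The ratio to lbp-6 did not overlap for lbp-4, also in neither class, which was at 0.0657 and 0.0646 in N2 and 0.0579 and 0.0576 in the mutant, or for the sparse lbp-8, at 0.00276 and 0.00256 in N2 and 0.00167 and 0.00243 in the mutant. The ratio of lbp-3 to lbp-2 was 0.151 and 0.142 in N2 and 0.152 and 0.151 in the mutant, a separation of less than the difference between the N2 libraries.

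Summed over the classes, secreted members had 522 and 553 CPM in N2 and 571 and 564 CPM in the mutant, while intracellular members had 518 and 496 CPM in N2 and 476 and 467 CPM in the mutant. lbp-2 supplied 75.7 to 76.6% of the secreted counts and lbp-6 87.1 to 88.1% of the intracellular counts, so these sums mostly restate those members. The secreted share of the 7 classed genes was 50.2% (exact binomial 95% interval 49.7 to 50.7) and 52.7% (52.1 to 53.3) in N2 and 54.6% (53.97 to 55.1) and 54.7% (54.1 to 55.4) in the mutant. The mutant libraries lay together above both N2 libraries, which differed from each other by more than counting error. The ratio of secreted to intracellular counts was 1.06 ± 0.0754 in N2 and 1.204 ± 0.00559 in the mutant (SD, n = 2 each). On the log2 scale the strains differed by 0.18, or by 0.11 without N2 replicate 1. With lbp-9 counted as secreted and lbp-4 as intracellular, the secreted share was 69.99% and 72.5% in N2 and 72.1% and 72.7% in the mutant. There the strains overlapped, and the log2 difference was 0.083. With lbp-4 and lbp-9 both counted as intracellular, the share was 28.6% and 29.0% in N2 and 31.9% and 31.4% in the mutant. There the strains did not overlap, and the log2 difference was 0.19. The ratio is given as a description with no p, since its members were chosen with results of these data known.

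**Figure D3:**
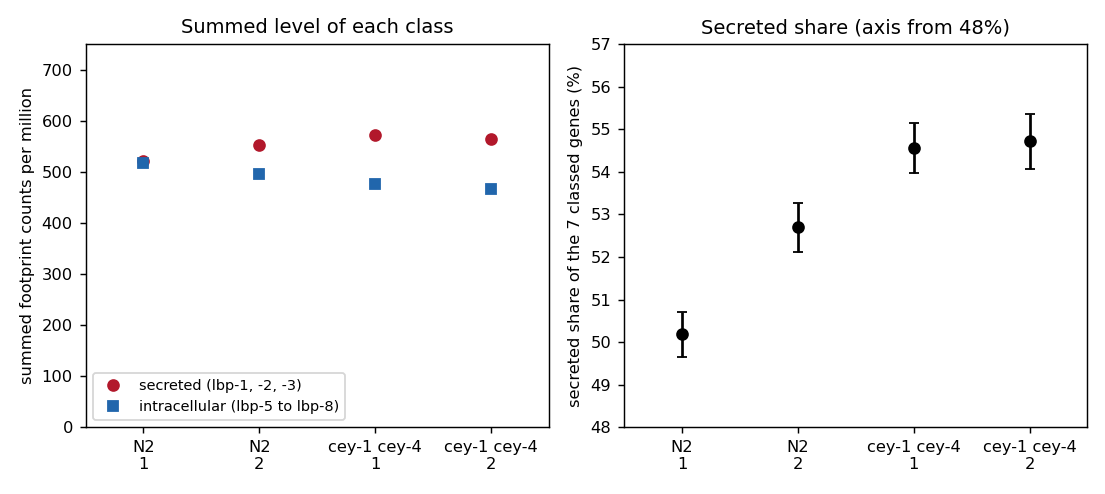
Left, summed CPM of the secreted genes (circles) and the intracellular genes (squares) in each library, on an axis from 0; right, the secreted share of the counts of the 7 classed genes with exact binomial 95% intervals, on an axis cut at 48%. The N2 libraries sit at 50.2% and 52.7%, below the mutant libraries at 54.6% and 54.7%.

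Several members of the same class were neighbours in the genome. In the RefSeq gene order of the WBcel235 assembly, lbp-3, lbp-1 and lbp-2 followed each other on chromosome X with 0 protein-coding genes between them. lbp-6 and lbp-5 on chromosome I had 1 protein-coding gene between them, and lbp-7 and lbp-8 on chromosome V had 3. lbp-9 and lbp-4, also on chromosome V, stood alone, with 1402 protein-coding genes between them. The log2 fold changes of -0.10 and -0.15 on chromosome I and of 0.068 to 0.12 on chromosome X therefore came from 1 locus each. Genes beside the lbp loci were mostly sparse. tba-9, a tubulin gene next to the chromosome X group, did not pass at 0.21 (SE 0.145, edgeR adjusted p = 0.272). smg-5, a nonsense-mediated decay gene next to the chromosome I pair, had 0.038 (SE 0.099, edgeR adjusted p = 0.808). sptl-3, next to the lbp-7 and lbp-8 pair, had -0.0035 (SE 0.049, edgeR adjusted p = 0.966). nhr-86, next to lbp-9, had 0.21 (SE 0.085, edgeR adjusted p = 0.0503). Y40B10A.9, also next to lbp-9, had -0.24 (SE 0.133, edgeR adjusted p = 0.159). How alike the sequences of neighbouring members are was not examined, so reads shared between them are not known.

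Over the 4 libraries, the genes with a pattern most like that of lbp-2 were zif-1, wrk-1 and F26A3.7, at root mean square differences of 0.0030, 0.0083 and 0.0090 in centred log2 CPM. Those most like lbp-6 were pam-1, cfim-2 and ears-1, at 0.0034, 0.0055 and 0.0074. With 4 libraries and small changes such likeness is common: of 8635 genes compared, 806 lay within 0.05 of lbp-2 and 1355 within 0.05 of lbp-6.

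Other genes of fatty acid handling are given by list, each to be read against the 17.4% higher and 16.6% lower of all genes tested. The far genes encode fatty acid and retinol binding proteins of nematodes. Of 8, 3 were called higher (37.5%; 2 without mutant replicate 1), 1 lower and 4 neither, and the median log2 fold change was 0.029, or -0.10 with somatic centring. far-3 rose from 5.65 and 6.03 CPM in N2 to 10.4 and 10.1 CPM in the mutant (log2 fold change 0.82, SE 0.11, edgeR adjusted p = 4.15e-09). far-2, the member with most counts, did not pass at 0.078 (SE 0.057; adjusted p = 0.313 by edgeR; it passed at 0.16 without N2 replicate 2, and its value was -0.00085 without N2 replicate 1 and -0.054 under somatic centring). Of 7 acyl-CoA binding genes, 1 was called higher, acbp-4 at 0.58 (SE 0.161, edgeR adjusted p = 0.00284), and 2 lower by edgeR (14.3% and 28.6%), whereas DESeq2 called 0 of either. The count of 2 became 1 without N2 replicate 2 or mutant replicate 1 and 0 without N2 replicate 1 or mutant replicate 2. acbp-1, with most counts, fell by 0.11 (SE 0.038, edgeR adjusted p = 0.0177), a call that was lost without N2 replicate 1 (0.137), without mutant replicate 2 (0.434) and with upper-quartile factors (0.188).

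Of 21 acyl-CoA synthetase genes, whose products activate fatty acids for use, 4 were called higher and 2 lower (19% and 9.5%, beside 17.4% and 16.6% of all genes), against 1 and 2 by DESeq2, and their median was 0.063, or -0.068 with somatic centring. acs-10 rose by 0.48 (SE 0.064, edgeR adjusted p = 3.92e-09). acs-4, with most counts, fell by 0.12 (SE 0.036, edgeR adjusted p = 0.00429). Its log2 fold change stayed at -0.13 to -0.12 with each library left out in turn, though most of these fits did not pass. The call was lost with upper-quartile factors (log2 fold change -0.078, edgeR adjusted p = 0.0841). The list's 4 higher and 2 lower became 2 and 1 without mutant replicate 2, and 1 was lower without N2 replicate 1 or mutant replicate 1. Of 17 genes of mitochondrial fatty acid oxidation, 5 were called higher and 4 lower (29.4% and 23.5%, beside 17.4% and 16.6% of all genes), against 2 and 2 by DESeq2. The counts became 2 and 3 without mutant replicate 1, 2 and 2 without mutant replicate 2, and 6 and 2 without N2 replicate 1. acdh-8, an acyl-CoA dehydrogenase gene, rose by 0.44 (SE 0.046, edgeR adjusted p = 8.16e-13), and ech-6, an enoyl-CoA hydratase gene, fell by 0.29 (SE 0.047, edgeR adjusted p = 7.55e-07).

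The known partners of LBP-8 and LBP-3 include the lysosomal lipase LIPL-4 and the nuclear hormone receptors NHR-49 and NHR-80. Of 7 lysosomal lipase genes tested, edgeR called 0 in either direction, 0 had an unadjusted p under 0.05, and DESeq2 and limma-voom called 0. lipl-5, with most counts, did not pass at -0.021 (SE 0.036; adjusted p = 0.712 by edgeR), which was 0.025 with upper-quartile factors and passed at -0.15 under somatic centring (0.00768). lipl-3, with the lowest p, had 0.66 (SE 0.434, edgeR adjusted p = 0.249) at 0.389 ± 0.0939 CPM in N2. lipl-4, named for its tie to these carriers, was at 0.395 and 0.179 CPM in N2 and 0.441 and 0.448 CPM in the mutant, too low to set against the spread. nhr-49 had 46.9 and 41.8 CPM in N2 and 41.8 and 40.9 CPM in the mutant (log2 fold change -0.11, SE 0.057), and nhr-80 had 0.034 (SE 0.125); neither passed.

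Of 12 lipid-sensing regulators, which include these receptors, 6 were called higher (50%, beside 17.4% of all genes; 3 by DESeq2) and 6 were not called, with a median of 0.35, or 0.21 under somatic centring. sbp-1, the C. elegans SREBP transcription factor, rose by 0.51 (SE 0.077, edgeR adjusted p = 1.04e-06). The Mediator subunit gene mdt-15 rose by 0.13 (SE 0.049, edgeR adjusted p = 0.0379), a call lost without N2 replicate 2 (0.255) and without mutant replicate 2 (0.495) and with DESeq2 (adjusted p = 0.329), and its value was -0.0042 under somatic centring. Of 12 fat storage and droplet genes, 5 were called higher and 3 lower (41.7% and 25%, beside 17.4% and 16.6% of all genes; 3 and 1 by DESeq2), which became 4 and 1 without mutant replicate 1 and 3 and 1 without mutant replicate 2. fasn-1, the fatty acid synthase gene, rose from 1310 and 1322 CPM in N2 to 1820 and 1782 CPM in the mutant (log2 fold change 0.45, SE 0.056, edgeR adjusted p = 4.27e-10). Among 8 genes of other lipid carriers, 4 were called higher (50%) and 1 lower (12.5%; 2 lower without N2 replicate 1, 3 without N2 replicate 2). The faller was rme-2, the yolk receptor gene of the oocyte, from 391 and 413 CPM in N2 to 194 and 195 CPM in the mutant (log2 fold change -1.05, SE 0.037, edgeR adjusted p = 4.56e-37).

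**Figure D4:**
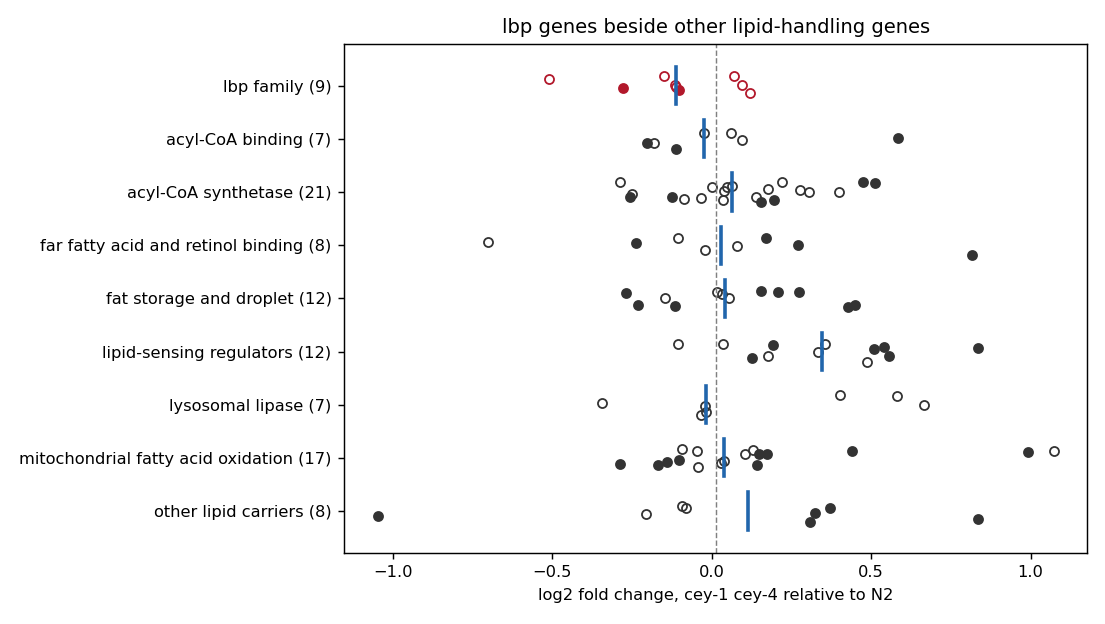
Log2 fold change of each gene tested in the lbp family (top row) and in 8 lists of lipid-handling genes, with the number tested in brackets; filled points passed the edgeR threshold, open points did not, blue bars are list medians and the dashed line is the median of all genes tested. The lbp genes lie between -0.51 and 0.12, while rme-2 at -1.05 and far-3 at 0.82 lie farther out.

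Marker genes of several tissues moved between the strains, and their part in the lbp values was not tested. Their counts are to be read against the 17.4% higher and 16.6% lower of all genes tested. Shares near these were those of neuron markers, 15% higher and 15% lower, and the 18.2% higher of pharynx markers, of which 36.4% were lower. Of hypodermis markers 30% were higher. Of 20 body wall muscle markers 17 were called higher, with summed levels of 16634 and 17573 CPM in N2 and 28822 and 28711 CPM in the mutant. Of 19 intestine markers 10 were called higher and 2 lower (1 lower without N2 replicate 1 or mutant replicate 1), with 9339 CPM in each N2 library and 10446 and 10440 CPM in the mutant. Of 20 hypodermis markers 6 were called higher, with 13711 and 14702 CPM in N2 and 14894 and 15188 CPM in the mutant. Of 19 germline and oocyte markers 15 were called lower, with 8027 and 8247 CPM in N2 and 5506 and 5432 CPM in the mutant, and of 18 sperm markers 17 were called higher, with 991 and 1033 CPM in N2 and 1389 and 1458 CPM in the mutant. Of 11 pharynx markers 2 were called higher and 4 lower (3 and 1 by DESeq2), although their summed level was 901 to 1019 CPM in N2 and 1277 to 1412 CPM in the mutant. Without N2 replicate 1 the pharynx counts were 4 and 4, without N2 replicate 2 they were 5 and 2, and without mutant replicate 1 or 2 they were 4 and 1 or 4 and 2. Of 20 neuron markers 3 were called higher and 3 lower (0 and 3 by DESeq2), with summed levels of 249 to 267 CPM in N2 and 230 to 231 CPM in the mutant; 1 was higher without N2 replicate 1.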

How the data were processed

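For each library the authors deposited raw counts by gene. Bowtie is named per the submitters' processing notes. Its version, the genome build, the annotation and the counting rule are not given in the sources used. The deposited log2 values were recomputed, within 5e-04, by adding 8 to counts scaled to the smallest library and taking log2. Of 20182 features, 18778 matched a symbol by WormBase ID and 3 by sequence name; these 3 repeat listed genes and were left out. The test was edgeR 4.0.16 under R 4.3.3 (TMM, filterByExpr with a minimum count of 10, robust glmQLFit, glmQLFTest, 2-sided, genotype as the only term). It was also run on counts simulated with the spread of this fit, which cannot show whether that spread is technical. Intervals use the fit's SE and degrees of freedom. Alternatives used DESeq2 1.42.0, limma 3.58.1, other scalings, filters and tests, a replicate block and each library left out, when a lone library is assumed to vary like the other group. The lbp members and the gene lists were chosen with earlier results of these data known. Named genes are the 9 members, cey-1 and cey-4, the gene of lowest p and that of most counts in each lipid list, and the 3 genes of at least 100 mean counts most like lbp-2 and lbp-6. The genes lipl-4, nhr-49, nhr-80, tba-9, smg-5, sptl-3, nhr-86 and Y40B10A.9 were named after their values were seen. Levels per coding length and promoter motifs, planned at first, were not analysed here. Libraries of a strain differed by more than sampling noise (chi-square of counts over its degrees of freedom, 22.9 for N2 and 7.85 for the mutant) and were kept as 2 each, which does not show separate cultures. acs-22 is in 2 lipid lists, and nhr-23 and nhr-25 are both regulators and hypodermis markers.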

Additional observations from a re-analysis of the deposited data

How the results depend on the processing

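All 9 lbp genes kept the sign of their change except under centring on somatic marker genes, where lbp-1, lbp-2 and lbp-3 turned to -0.037, -0.064 and -0.013; the cause was not tested. The number of lbp genes called higher, 0 in the report, was 3 with upper-quartile factors, 1 with at least 50 counts in 2 libraries and 1 with the replicate block, and 0 to 2 with single libraries left out. The number called lower, 2 in the report, was 1 with DESeq2, with upper-quartile factors and with the 50-count filter, 5 under somatic centring, 4 with the replicate block, 0 against a fold change of 1.2, and 1 to 4 with single libraries left out. lbp-8 had too few counts for the 50-count filter. Over all genes, 2278 higher and 2177 lower became 898 and 1156 with DESeq2, 1264 and 3997 under somatic centring and 809 and 450 against a fold change of 1.2, and 1624 to 1963 and 1540 to 1922 with single libraries left out. The replicate number is only a number in the labels: with 2 pairs, same-numbered libraries deviated together with a correlation of 0.19 over 8110 genes, and the replicate block gave 2431 higher and 2351 lower. The log2 ratio of secreted to intracellular counts, mutant minus N2, was 0.18. It was 0.083 with lbp-9 counted as secreted and lbp-4 as intracellular, and 0.19 with both counted as intracellular. Without single libraries, a check added after seeing the data, it was 0.11 to 0.26. Depth limits lbp-8, with 19 to 41 counts, more than the other members, which had at least 522 counts in each library.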
